A study of Mus musculus with 24 samples.

Results

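Casein kinase 2 (CK2) is a protein kinase built from catalytic subunits, alpha (gene Csnk2a1) and alpha prime (Csnk2a2), held together by a dimer of the regulatory subunit beta (Csnk2b). Uxs1 encodes UDP-glucuronate decarboxylase, an enzyme of another pathway. These 4 genes were chosen by symbol, and 3 of them were measured by a probe set of their own, among 22180 genes measured in the series. Csnk2a1, Csnk2a2 and Uxs1 had 1 probe set each, whereas the platform annotation used here named none for Csnk2b, which therefore has no values. Csnk2a1 and Uxs1 were picked from the data: they were the only genes with an adjusted p of at most 0.05 when the hairpin against FOXA2 was compared with the control hairpin over all conditions (2 of 22180 genes, 0.00902%, and 0.0766% with the experiment as a block). The hairpin differences of the listed genes are therefore given as a description, without a test.

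The cells were primary hepatocytes of male C57Bl6J mice, measured on 24 Affymetrix MoGene 2.0 ST arrays in 8 groups of 3. All received an adenovirus at a multiplicity of infection of 5, carrying either shA2.3 (shFOXA2.3 in the sample characteristics, shFOXA2 below), a hairpin RNA against FOXA2, or shlacZ, a hairpin against a bacterial gene that mouse cells lack. The medium then held either insulin at 1 nM or glucagon at 100 nM for 4 h, with DMSO as solvent or with 2 µM GW4064, which activates the nuclear bile acid receptor FXR, in cultures with 100 nM dexamethasone. Each group had 1 array in each of experiments 1 to 3, and an experiment used hepatocytes pooled from 3 mice. No group lacked a hairpin, an adenovirus or a hormone, FOXA2 was targeted by 1 hairpin, and a fall under glucagon cannot be told from a rise under insulin.

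CK2 phosphorylates serines and threonines next to acidic residues in a very large number of proteins. Unlike most kinases it is active without a second messenger, and the beta subunit steers which substrates the catalytic subunits reach. Uxs1 acts in the endoplasmic reticulum and Golgi, where it converts UDP-glucuronate to UDP-xylose, the donor of the xylose that starts glycosaminoglycan chains on proteoglycans. In hepatocytes UDP-glucuronate is also the donor for glucuronidation of bilirubin, steroids and drugs.

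In GRCm38.p6, Csnk2a1 lies on chromosome 2 (152226535 to 152281856), Csnk2a2 on chromosome 8 (95446096 to 95488868), Csnk2b on chromosome 17 (35116195 to 35122053) and Uxs1 on chromosome 1 (43746961 to 43827839). The reference also lists 3 pseudogenes named after the alpha subunit, and 0 of them had a probe set. Whether their transcripts add to the Csnk2a1 signal was not tested. Csnk2a1 and Uxs1 were both low with the hairpin. Averaged over the conditions, Csnk2a1 and Csnk2a2 both fell under glucagon, though Csnk2a1 did not with shFOXA2 and DMSO. The promoters of the 3 measured genes are shown for these reasons. Each is the RefSeq stretch from 250 bases before to 50 bases after the 1 start given for the gene (GRCm38.p6), 5′ to 3′ on the gene's own strand, at chr2:152226590-152226889 on the plus strand for Csnk2a1, and at chr8:95488771-95489070 and chr1:43827790-43828089 on the minus strand for Csnk2a2 and Uxs1. That start lay 305 bases inside the outer end of the annotated gene for Csnk2a1, 48 bases inside it for Csnk2a2 and at it for Uxs1, so the Csnk2a1 window lies within the annotated gene and other starts of these genes are not shown. Capitals mark matches on either strand to 4 motifs: a forkhead motif (TGTTTAC), a cAMP-response half-site (TGACG), an ETS motif (CCGGAA) and the GC box (GGGCGG).
Csnk2a1: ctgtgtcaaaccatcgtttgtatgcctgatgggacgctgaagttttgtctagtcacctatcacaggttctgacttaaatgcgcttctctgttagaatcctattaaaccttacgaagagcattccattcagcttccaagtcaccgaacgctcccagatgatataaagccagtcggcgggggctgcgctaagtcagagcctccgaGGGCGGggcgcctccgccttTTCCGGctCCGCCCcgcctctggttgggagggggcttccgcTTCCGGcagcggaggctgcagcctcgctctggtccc
Csnk2a2: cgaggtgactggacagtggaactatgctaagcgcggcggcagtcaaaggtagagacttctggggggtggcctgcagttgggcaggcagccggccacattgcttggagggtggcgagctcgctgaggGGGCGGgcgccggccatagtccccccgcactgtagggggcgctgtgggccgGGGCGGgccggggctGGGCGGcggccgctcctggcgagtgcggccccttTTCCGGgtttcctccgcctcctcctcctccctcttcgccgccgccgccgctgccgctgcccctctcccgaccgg
Uxs1: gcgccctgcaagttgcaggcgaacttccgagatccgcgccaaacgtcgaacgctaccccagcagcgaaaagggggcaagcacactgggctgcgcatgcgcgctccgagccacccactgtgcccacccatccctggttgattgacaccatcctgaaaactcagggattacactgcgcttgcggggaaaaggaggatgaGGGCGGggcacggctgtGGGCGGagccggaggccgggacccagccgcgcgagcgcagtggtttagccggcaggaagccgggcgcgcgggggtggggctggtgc
The forkhead motif had 0 matches in each of the 3 promoters, against 3.65% of all 32851 promoters of this length with a match. The cAMP half-site also had 0 in each, against 20.8% of promoters. The ETS motif was found 2 times in Csnk2a1, 1 time in Csnk2a2 and 0 times in Uxs1, against 14.9% of promoters with a match. The GC box was found 2, 3 and 2 times, against 35.7%. These are counts of letters in a window and not sites of binding.

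Levels are the deposited log2 values, and the median over all probe sets and arrays was 3.25. Csnk2a1 lay between 9.17 and 9.89 over the 24 arrays, Csnk2a2 between 9.11 and 9.98, and Uxs1 between 6.21 and 7.05. The signals of all 3 genes were well above that median on every array. Signals of different probe sets were not set against each other. Hepatocyte markers had a median level of 10.5, with albumin (Alb) at 13.1. The lists of other cell types had median levels of 2.53 for lymphocytes, 2.91 for macrophages, 3.13 for stellate cells, 3.92 for cholangiocytes and 5.10 for endothelial cells. Among single genes of these lists, picked after their values were seen, Adgre1 (2.46), Clec4f (3.04), Lrat (2.98), Krt7 (2.95) and Cd3e (2.46) were below the array median. Cd68 (9.12), Cd14 (7.87), Sox9 (7.18), Cdh5 (6.94) and Lyve1 (6.72) were well above it, so RNA of other cell types is not shown to be absent. In bulk RNA, fewer cells of a type and less RNA per cell cannot be told apart.

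The hairpin's target comes first. Foxa2, a liver transcription factor of the forkhead family, was lower in the shFOXA2 array of 12 of 12 pairs, a pair being arrays of the same experiment, hormone and drug. On the 6 control arrays under insulin it had a lowest level of 6.07, a median of 6.22 and a highest of 6.30, and on the 6 hairpin arrays 5.54, 5.70 and 6.08. Under glucagon the same values were 7.11, 7.40 and 7.72 for control and 6.79, 6.96 and 7.21 for hairpin arrays, so that the groups overlapped in both hormones. The difference was -0.51 ± 0.096 (SD, n = 4 pairs) in experiment 1, -0.66 ± 0.19 in experiment 2 and -0.12 ± 0.083 in experiment 3. In percent these were changes of -30.0%, -36.8% and -8.07%, so Foxa2 was least lowered in experiment 3. Over all conditions its limma adjusted p was 0.0613, and 0.0194 with the experiment as a block.

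Csnk2a1, the catalytic alpha subunit, was lower with the FOXA2 hairpin in 12 of 12 pairs. Under insulin and DMSO its level was 9.70, 9.83 and 9.82 in experiments 1 to 3 with shlacZ and 9.35, 9.31 and 9.31 with shFOXA2. Under insulin and GW4064 it was 9.74, 9.89 and 9.65 with shlacZ and 9.40, 9.42 and 9.47 with shFOXA2. The 6 control and 6 hairpin arrays under insulin did not overlap. Csnk2a1 was chosen on this comparison, which favours such a gap, and the share of all genes with one was not counted.

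Under glucagon and DMSO Csnk2a1 was at 9.61, 9.52 and 9.47 with shlacZ and at 9.37, 9.35 and 9.36 with shFOXA2. Under glucagon and GW4064 it was at 9.50, 9.38 and 9.41 with shlacZ and at 9.17, 9.20 and 9.23 with shFOXA2. The 6 control and 6 hairpin arrays did not overlap here either, although the lowest control array (9.38) and the highest hairpin array (9.37) were next to each other. Ordered by their means over 6 arrays, the levels were 9.77 ± 0.090 (SD) for control under insulin, 9.48 ± 0.080 for control under glucagon, 9.37 ± 0.065 for hairpin under insulin and 9.28 ± 0.092 for hairpin under glucagon. The first of these sets was apart from the second, whereas each later neighbour overlapped with the set before it. How many of all genes had gaps of these kinds was not counted.

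Averaged over all pairs the hairpin difference of Csnk2a1 was -0.30 ± 0.14 (SD, n = 12 pairs), a change of -18.7% in signal. It was 40th from the lowest of 22180 genes by size and the lowest by limma's moderated statistic, since its arrays varied little. Of all genes, 0.135% were lower in 12 of 12 pairs. The rule used this comparison, so nothing is read from these ranks.

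**Figure D1:**
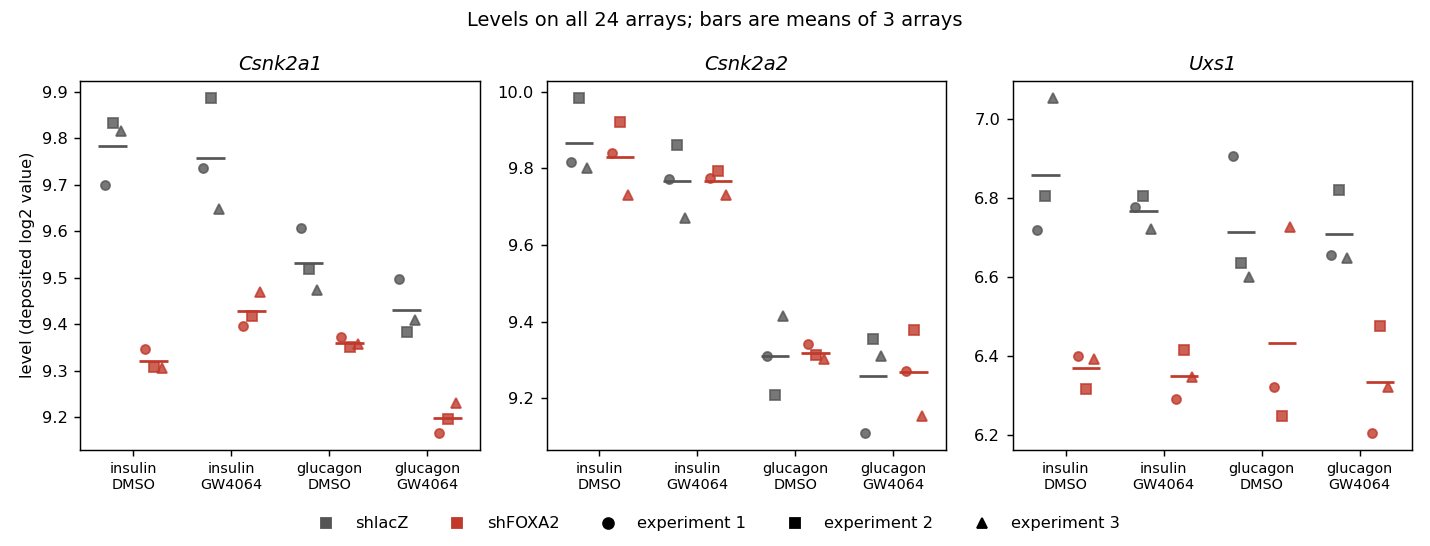
Deposited log2 levels of Csnk2a1, Csnk2a2 and Uxs1 on all 24 arrays, by hormone and drug on the horizontal axis; grey is shlacZ, red is shFOXA2, the symbol gives the experiment and each bar the mean of 3 arrays. Csnk2a1 and Uxs1 were lower with shFOXA2 under each hormone and drug, whereas Csnk2a2 separated by hormone, from 9.67 to 9.98 under insulin and from 9.11 to 9.41 under glucagon. The vertical axes differ between panels and do not start at 0.

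Uxs1, the UDP-xylose synthase, was lower with the FOXA2 hairpin in 11 of 12 pairs. On the 6 control arrays under insulin its lowest level was 6.72, its median 6.79 and its highest 7.05, and on the 6 hairpin arrays these were 6.29, 6.37 and 6.42. Under glucagon they were 6.60, 6.65 and 6.91 for control and 6.21, 6.32 and 6.73 for hairpin arrays. The groups did not overlap under insulin and overlapped under glucagon through 1 array, the hairpin array of experiment 3 with glucagon and DMSO at 6.73, which was 0.13 above its partner. Uxs1 too was chosen on this comparison, which favours such a gap, and the share of all genes with one was not counted. The averaged difference of Uxs1 was -0.39 ± 0.19 (SD, n = 12 pairs), a change of -23.7% in signal and the 8th lowest of all genes. By group, Uxs1 differed by -0.49 ± 0.17 under insulin and DMSO, -0.42 ± 0.060 under insulin and GW4064, -0.28 ± 0.37 under glucagon and DMSO and -0.37 ± 0.067 under glucagon and GW4064 (SD, n = 3 pairs each).

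Csnk2a2, the alpha prime subunit, was lower with the hairpin in 5 of 12 pairs and higher in 7. Its averaged difference was -0.01 ± 0.092 (SD, n = 12 pairs), and the 95% confidence interval from the fit ran from -0.10 to 0.08 on the log2 scale. The 2 catalytic subunits thus had hairpin differences of unlike size on the same arrays. Whether they differed was not tested, because Csnk2a1 was chosen on this comparison.

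The hairpin differences of Csnk2a1 and Uxs1 were next set beside that of Foxa2 experiment by experiment. Csnk2a1 differed by -0.31 ± 0.054 in experiment 1, -0.34 ± 0.19 in experiment 2 and -0.25 ± 0.18 in experiment 3 (SD, n = 4 pairs each). Uxs1 differed by -0.46 ± 0.11, -0.40 ± 0.062 and -0.31 ± 0.33. In experiment 3, where Foxa2 was at -8.07%, Csnk2a1 was at -15.6% and Uxs1 at -19.2%. In experiment 1 the 3 values were -30.0%, -19.6% and -27.3%, and in experiment 2 they were -36.8%, -20.8% and -24.4%. Foxa2 therefore differed most between experiments, and each of the 3 genes was least lowered in experiment 3. Csnk2a1 was lower in 4 of 4 and Uxs1 in 3 of 4 pairs of experiment 3. The choice of Csnk2a1 and Uxs1 favoured genes that were low and steady over these experiments, whereas Foxa2 was not chosen so. Nothing is therefore read from the smaller spread of Csnk2a1 and Uxs1 between experiments. Without experiment 3 the averaged differences were -0.33 for Csnk2a1 and -0.43 for Uxs1. Whether Csnk2a1 and Uxs1 depended on FOXA2, or were lowered by the hairpin in another way, was not tested: the arrays hold 1 hairpin against FOXA2, and its sequence was not used here.

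**Figure D2:**
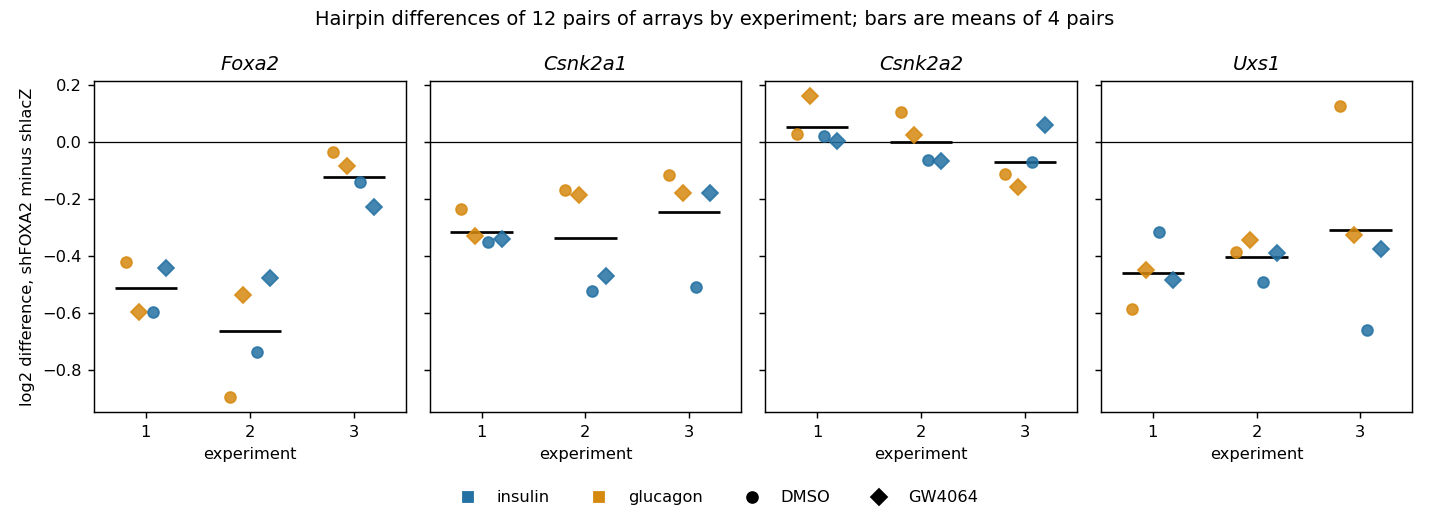
Log2 difference between the shFOXA2 and the shlacZ array of each of 12 pairs, by experiment on the horizontal axis, for Foxa2 and the 3 measured genes; blue is insulin, orange glucagon, circles DMSO, diamonds GW4064, and bars are means of 4 pairs. Foxa2 was at -0.12 in experiment 3 against -0.51 and -0.66 in the others, while Csnk2a1 was at -0.25 against -0.31 and -0.34. Csnk2a1 and Uxs1 were chosen on this comparison, which favours genes that are steady over the experiments.

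Some other measures can be placed beside the hairpin difference. Macrophage markers were lower with shFOXA2 for 8 of 8 genes, with a median of -0.07 against 0.00 for all genes, and 0 passed in limma (also 0 at an unadjusted p under 0.05). The median level of the macrophage list was 2.91, below the array median of 3.25, so weak signals enter these signs. The mean level over the macrophage list under insulin was 4.11 to 4.44 on control and 3.99 to 4.50 on hairpin arrays. Under glucagon it was 4.24 to 4.70 and 4.17 to 4.42. Endothelial markers were higher with shFOXA2 for 5 of 6 genes (median 0.06) and lymphocyte markers lower for 4 of 5 (median -0.04). In each of these 2 lists 1 gene was at an unadjusted p under 0.05. Hepatocyte markers were higher for 6 of 10, cholangiocyte markers for 3 of 4, and stellate cell markers lower for 4 of 7. No marker list had a gene that passed in limma. Over all genes 0.00902% passed, so this count of 0 is not a result about the cell types. The part of these cell types in the hairpin difference was not tested. The genes next to the members did not pass, which with so few genes called is not a result about them either. Tcf15 and Tbc1d20, on either side of Csnk2a1, differed by -0.04 and 0.02 (adjusted p = 0.959 and 0.981), and Ecrg4 and Tpp2, beside Uxs1, by 0.03 each (adjusted p = 0.962 and 0.977). Cfap20 and Ccdc113, beside Csnk2a2, differed by 0.10 and 0.03, and Ly6g5b and Gpank1, which overlap the ends of Csnk2b, by -0.04 and 0.05. Tcf15, Ecrg4, Ccdc113, Ly6g5b and Gpank1 had mean levels of 2.45 to 2.96, below the array median.

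It was then asked whether the hairpin difference depended on the hormone, a contrast that is orthogonal in this balanced design to the one that chose the genes. Csnk2a1 was lower with the hairpin by -0.40 ± 0.13 under insulin and by -0.20 ± 0.073 under glucagon (SD, n = 6 pairs each). The difference between these was 0.19 (SE 0.068), with a 95% confidence interval from 0.05 to 0.34, an unadjusted p of 0.0106 and a limma adjusted p of 0.9998 (0.643 with the block), so it did not pass. Over all genes 0% passed this contrast in limma, with 921 genes at an unadjusted p under 0.05. For Uxs1 the hairpin differences were -0.45 ± 0.12 under insulin and -0.33 ± 0.24 under glucagon, and their difference was 0.13 (SE 0.12, adjusted p = 0.9998). For Csnk2a2 it was 0.03 (SE 0.086, adjusted p = 0.9998). The drug did not alter the hairpin difference beyond error either, at 0.04 (SE 0.068) for Csnk2a1, 0.02 (SE 0.086) for Csnk2a2 and -0.01 (SE 0.12) for Uxs1 (adjusted p = 0.9999 each, 0% of genes called in limma and 705 at an unadjusted p under 0.05).

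The hormone comparison, which the choice of the genes did not use, gave its largest difference for Csnk2a2. On the 6 control arrays its lowest level was 9.67, its median 9.81 and its highest 9.98 under insulin, and 9.11, 9.31 and 9.41 under glucagon. On the 6 hairpin arrays these were 9.73, 9.78 and 9.92 under insulin and 9.15, 9.31 and 9.38 under glucagon. The 12 glucagon arrays were all below the 12 insulin arrays. How many of all genes separated in this way was not counted. Csnk2a2 fell under glucagon, with a log2 difference of -0.52 (SE 0.043) and a change of -30.2% (limma, adjusted p = 2.4e-08), and was lower in 12 of 12 pairs, as were 5.75% of all genes. It was lower in each experiment, at -0.54 ± 0.079, -0.58 ± 0.16 and -0.44 ± 0.098 (SD, n = 4 pairs). In the same contrast 16.2% of all genes were called, 8.85% as falls and 7.38% as rises (24.6% in all and 12.6% as falls with the block).

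The fall of Csnk2a2 was seen in each of the 4 conditions. The log2 difference was -0.56 with shlacZ and DMSO, -0.51 with shlacZ and GW4064, -0.51 with shFOXA2 and DMSO and -0.50 with shFOXA2 and GW4064 (SE 0.086 each). The limma adjusted p were 4.2e-04, 0.00135, 9.1e-04 and 0.0014. In these conditions 2.98%, 1.8%, 2.67% and 2.12% of genes were called as falls, and 6.53%, 4.5%, 5.96% and 5.05% with the block.

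Csnk2a1 also fell under glucagon on average, with a log2 difference of -0.19 (SE 0.034) and a change of -12.5% (limma, adjusted p = 3.3e-04), and was lower in 9 of 12 pairs. It was at -0.13 ± 0.13, -0.25 ± 0.23 and -0.19 ± 0.17 in experiments 1 to 3 (SD, n = 4 pairs). The 3 pairs that were not lower were those with shFOXA2 and DMSO, at 0.03, 0.04 and 0.05. In control cells Csnk2a1 fell both with DMSO (-0.25, SE 0.068, adjusted p = 0.0397) and with GW4064 (-0.33, SE 0.068, adjusted p = 0.0082). In hairpin cells it was at 0.04 with DMSO (SE 0.068, adjusted p = 0.892) and at -0.23 with GW4064 (SE 0.068, adjusted p = 0.0753, with the block 0.0503). The small spread that helped to choose Csnk2a1 also enters these errors, which may be too small for that reason.

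For Uxs1 no hormone difference was detected. It was at -0.04 under glucagon against insulin (SE 0.058, limma adjusted p = 0.773), with a 95% confidence interval from -0.16 to 0.08, and was lower in 8 of 12 pairs. Its 4 conditions lay between -0.15 and 0.06, with adjusted p from 0.624 to 0.984. Foxa2 moved the other way from the CK2 subunits, with a rise of 1.19 under glucagon (SE 0.072, adjusted p = 2.1e-10).

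**Figure D3:**
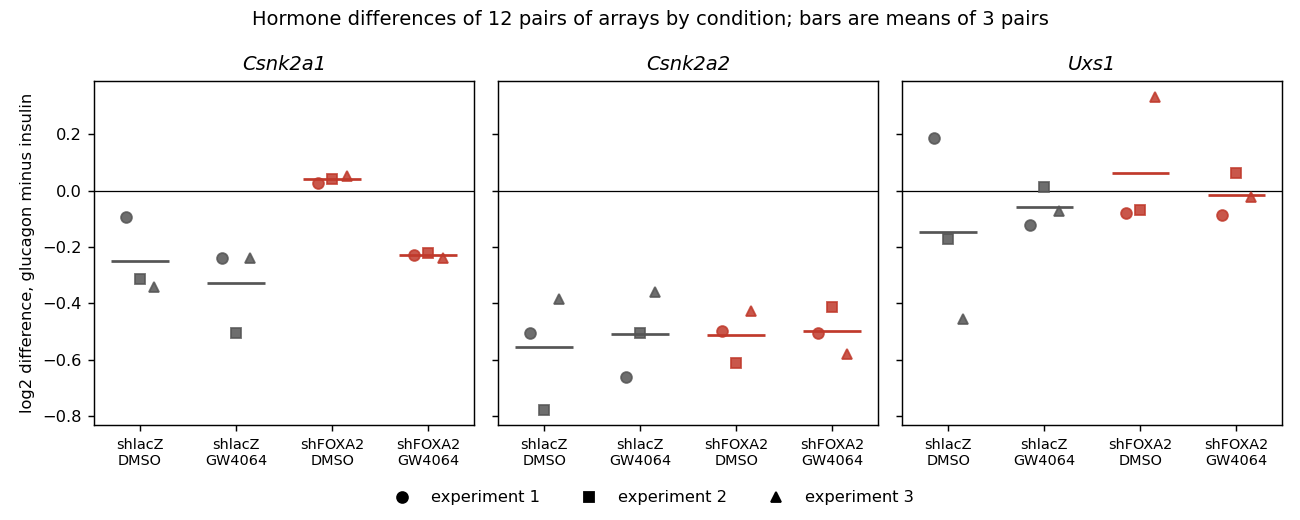
Log2 difference between the glucagon and the insulin array of each of 12 pairs, by hairpin and drug on the horizontal axis; the symbol gives the experiment and each bar the mean of 3 pairs. Csnk2a2 was below 0 in 12 of 12 pairs, Csnk2a1 in all but the 3 pairs with shFOXA2 and DMSO, and Uxs1 on both sides of 0.

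Cell type markers moved with the hormone as well. Of 10 hepatocyte markers 6 rose in limma, where 7.38% of all genes were called as rises. The mean level over the list was 9.33 to 10.1 under insulin and 10.1 to 10.5 under glucagon. The rises were Tat (2.99), Cps1 (1.10), Hnf4a (0.97), Fgb (0.43), Ttr (0.27) and F2 (0.15). Alb (0.03), Apob (0.05), Apoa1 (0.11) and Serpina1a (0.02) did not pass, so the list did not move as a whole. Of 4 cholangiocyte markers 1 fell, Sox9 at -1.20 (2 falls with the block), and the list's mean level was 4.39 to 5.10 under insulin and 4.09 to 4.44 under glucagon, with Krt7 and Epcam near the array median in mean level (2.95 and 3.37). None of 8 macrophage, 7 stellate, 6 endothelial and 5 lymphocyte markers passed in limma, with 1, 0, 0 and 0 at an unadjusted p under 0.05, and 2, 2, 1 and 0 rises with the block. Over all genes 8.85% were called as falls, and with the block 24.6% were called in all and 12.6% as falls. The part of the marker shifts in the falls of Csnk2a2 and Csnk2a1 was not tested.

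Of the genes beside the members, Cfap20, next to Csnk2a2, rose under glucagon by 0.28 (SE 0.066, adjusted p = 0.00472), and Tpp2, a peptidase gene next to Uxs1, fell (-0.17, SE 0.058, adjusted p = 0.0425). Tbc1d20, next to Csnk2a1, was at 0.01 (adjusted p = 0.968). Of the neighbours of the CK2 catalytic subunits with a mean level above the array median, Tbc1d20 and Cfap20, none fell.

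GW4064 had no detected effect on the 3 genes over all conditions. Csnk2a1 was at -0.05 against DMSO (SE 0.034), Csnk2a2 at -0.07 (SE 0.043) and Uxs1 at -0.05 (SE 0.058), each with a limma adjusted p of 0.9999, and 0.00902% of genes were called. The 95% confidence intervals ran from -0.12 to 0.03, from -0.16 to 0.02 and from -0.17 to 0.07. Under glucagon Csnk2a1 was lower with GW4064 in 6 of 6 pairs, as were 1.94% of genes, at -0.13 (SE 0.048, unadjusted p = 0.0128, adjusted p = 0.9999), whereas under insulin it was at 0.04 (SE 0.048). The difference between these, -0.17 (SE 0.068), had an unadjusted p of 0.0201 and an adjusted p of 0.99995, in a contrast where 0% of genes passed in limma and 584 were at an unadjusted p under 0.05. This split by hormone was looked at after the values were seen. The errors and p of Csnk2a1 with GW4064 may again be too small, because its small spread helped to choose the gene.

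Related genes were taken from lists of CK1 kinases, CK2 partners and substrates, UDP-sugar enzymes, users of xylose and proteoglycan core proteins, together 60 genes tested. With the FOXA2 hairpin 0 of these 60 passed in limma, with or without the block. Over all genes 0.00902% passed, and 0.0766% with the block. At an unadjusted p under 0.05 were 3.33% of the 60 against 6.20% of all genes. Median differences were 0.02 for CK1 kinases, 0.00 for CK2 partners, 0.00 for UDP-sugar genes, 0.05 for xylose users and 0.07 for core proteins, against 0.00 over all genes. The largest single values were those of Csnk1g1 (0.21) and Csnk1e (0.07) among CK1 kinases, Mdc1 (0.11) and Top2b (0.10) among CK2 partners, Uap1 and Slc35a2 (0.09 each) among UDP-sugar genes, Extl3 (0.16) and Poglut2 (0.10) among xylose users, and Bgn (0.16) and Sdc2 (0.13) among core proteins. None of the genes in these lists was thus detected to differ with the hairpin. With so few genes called over all genes, this count of 0 is not a result about these lists.

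With the hormone, 8 of the 60 rose, 9 fell and 43 did not pass, and 23 passed with the block. Over all genes 7.38% were called as rises and 8.85% as falls, and 24.6% were called with the block. At an unadjusted p under 0.05 were 38.3% of the 60 against 25.3% of all genes. CK1 kinases, which share the casein kinase name but form a separate family, went both ways. Of 5 tested, Csnk1e, a kinase of clock proteins, was at -0.55 (SE 0.049), Csnk1g1 at -0.39, Csnk1g2 at 0.24 and Csnk1g3 at 0.19, and these 4 passed. Csnk1a1, the kinase that primes beta-catenin for breakdown, was at 0.04 and did not.

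Of 16 CK2 partners and substrates tested, 1 rose, 4 fell and 11 did not pass (5 falls with the block), against 8.85% of all genes called as falls (12.6% with the block), and the median was -0.11 against 0.01 over all genes. The falls were Eif5, a translation initiation factor that CK2 phosphorylates (-0.42, SE 0.084, adjusted p = 0.0011), Nolc1, a nucleolar phosphoprotein heavily modified by CK2 (-0.19, SE 0.053), Supt16, a subunit of the FACT histone chaperone (-0.17, SE 0.051), and nucleolin (Ncl, -0.13), an abundant nucleolar CK2 substrate. The rise was that of Mdc1, a DNA damage mediator that CK2 phosphorylates (0.23, SE 0.061).

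On the side of Uxs1, 9 UDP-sugar genes were tested, of which 2 rose, 2 fell and 5 did not pass (3 and 2 with the block; median 0.07). Of all genes 7.38% were called as rises and 8.85% as falls, and with the block 24.6% were called in all and 12.6% as falls. Ugdh, which makes the UDP-glucuronate that Uxs1 consumes, rose by 0.84 (SE 0.20, adjusted p = 0.00446) and was higher in 12 of 12 pairs. Slc35b4, a Golgi transporter of UDP-xylose and UDP-N-acetylglucosamine, rose by 0.38 (SE 0.084). Gne, of sialic acid synthesis, was at -0.24 (SE 0.074) and Pgm2, a phosphoglucomutase family gene, at -0.21 (SE 0.065), and both fell. Ugp2, which makes UDP-glucose, was at 0.26 and passed only in the fit with the block (adjusted p = 0.00312, against 0.601). The enzyme before Uxs1 and a carrier of its product thus rose under glucagon while no difference was detected for Uxs1 itself.

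Of 16 xylose users and linker enzymes 0 passed in limma, with 3 at an unadjusted p under 0.05 and 2 falls with the block (median -0.05), those of Fam20b and Poglut1. Gxylt1, a xylosyltransferase of Notch repeats, was at -0.16 and Fam20b, the kinase that phosphorylates the linker xylose, also at -0.16 (adjusted p = 0.0711 and 0.0717). Of 14 core proteins 3 rose, 1 fell and 10 did not pass (4 rises and 2 falls with the block, median 0.08). Over all genes 7.38% were called as rises and 8.85% as falls (24.6% in all and 12.6% as falls with the block). The rises were Sdc1, the main heparan sulfate proteoglycan of the hepatocyte surface (0.48), Vcan (0.48), whose mean level of 3.49 was close to the array median, and Dcn (0.35), and the fall was Sdc4 (-0.42). With GW4064 0 of the 60 genes passed in limma, where 0.00902% of all genes passed. At an unadjusted p under 0.05 were 0 of the 60 against 3.45% of all genes.

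**Figure D4:**
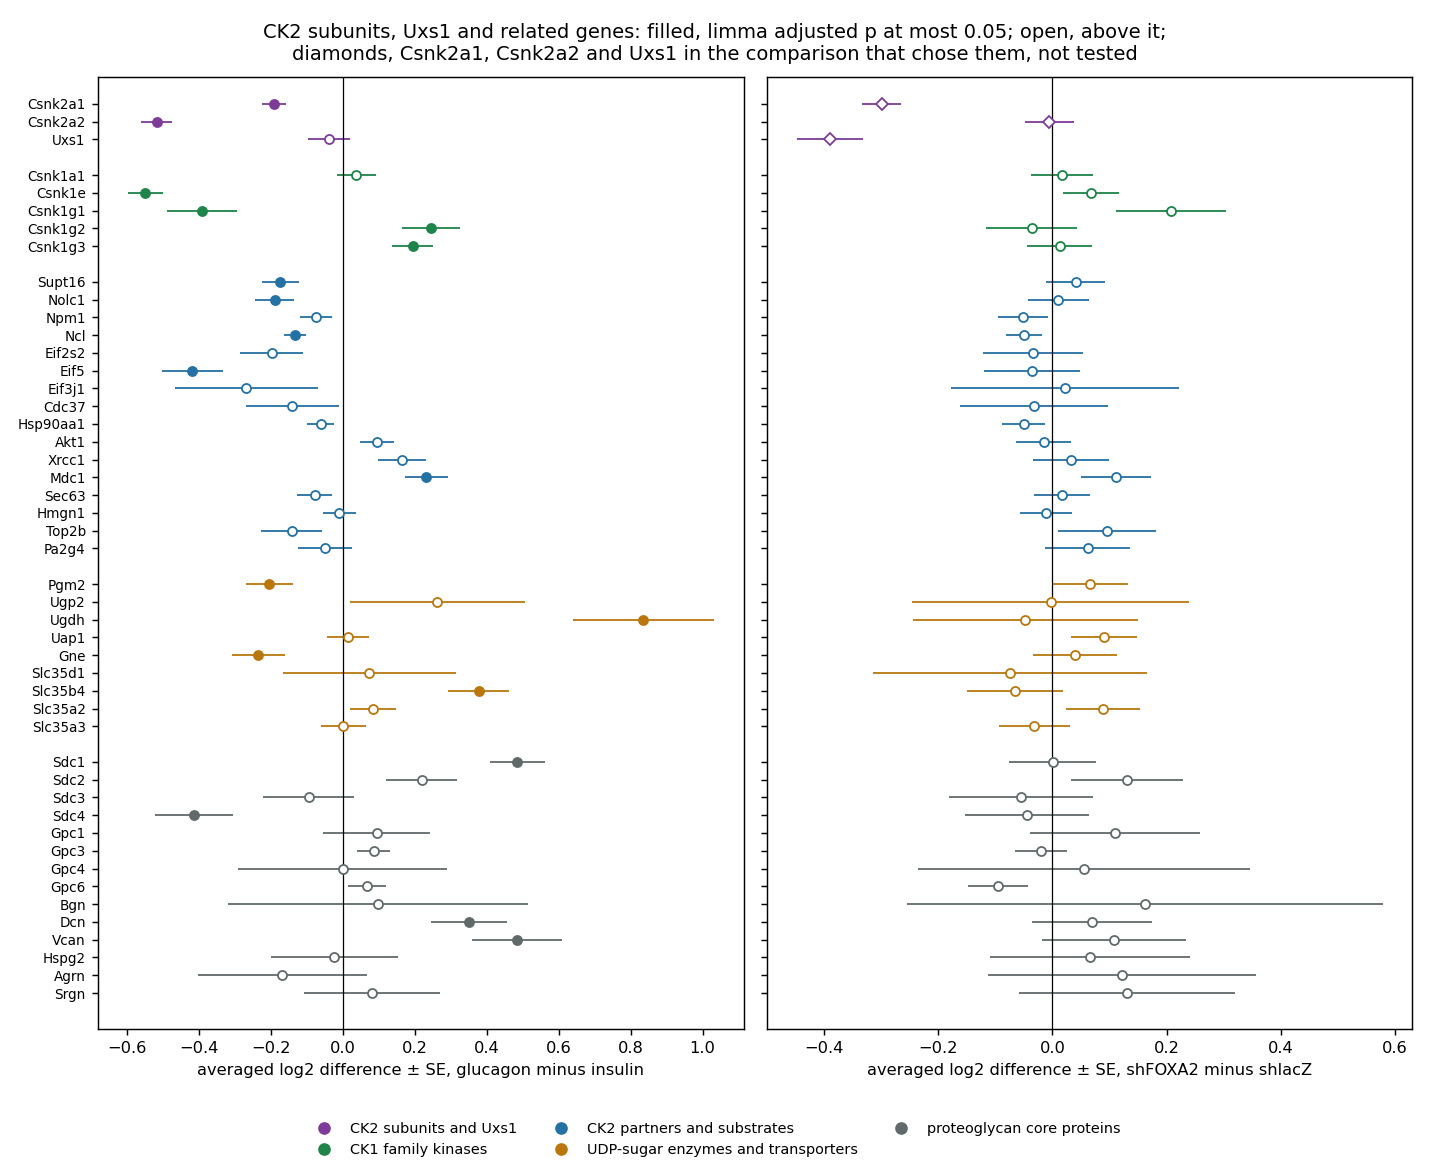
Averaged log2 differences with their limma SE (error bars) for the measured CK2 subunits and Uxs1, CK1 kinases, CK2 partners, UDP-sugar genes and proteoglycan core proteins; left, glucagon minus insulin, right, shFOXA2 minus shlacZ. Filled points have an adjusted p of at most 0.05. Diamonds on the right are Csnk2a1, Csnk2a2 and Uxs1, which were not tested there. Csnk2a1 and Uxs1 were chosen on that comparison. With the hormone, filled points lay on both sides of 0 in each list shown. With the hairpin all the points of the lists were open, where 0.00902% of all genes passed.

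Genes with the most similar pattern were ranked by Pearson's r over the 24 arrays, each experiment centred on its mean, among 7510 genes with a mean level of at least 5. The points share hairpin, hormone and drug, so r describes these arrays only. For Csnk2a1 they were Mycbp2, a ubiquitin ligase gene (r = 0.863), Lcp1, an actin-bundling protein of blood cells (0.829), and Mob4, a subunit of the STRIPAK phosphatase complex (0.827). Their hairpin differences were -0.15, -0.19 and -0.24, and their hormone differences -0.10, -0.14 and -0.28. For Uxs1 they were Gm20091 (0.794), Csnk2a1 itself (0.779) and Mycbp2 (0.730). Uxs1 and Csnk2a1 were both chosen for low values with the hairpin on these arrays, so their likeness is in part fixed by that choice. For Csnk2a2 they were the mitochondrial iron importer gene Slc25a37 (0.975), Daam1, a formin (0.974), and Nup54, a nuclear pore protein (0.970), with hormone differences of -1.20, -1.11 and -0.53 and hairpin differences of 0.00 to 0.03. The hairpin and hormone differences of these similar genes follow in part from the ranking, which used the same arrays. Csnk2a1 and Csnk2a2 correlated at 0.486 with each other, and Csnk2a2 with Foxa2 at -0.898.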

How the data were processed

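The sources were log2 expression values that the authors deposited for 41345 probe sets on 24 Affymetrix MoGene 2.0 ST arrays, processed with GeneSpring per the series' design text, which also says that technical replicates were pooled within a sample. The log2 scale was read from the values (1.46 to 13.5, array medians 3.21 to 3.28). How the arrays were normalized was not stated in the labels or headers. Labelled DNA was made from 300 ng of RNA per the labels' protocols. Replicates correlated at r = 0.986 to 0.994 across genes, and no replicate pair shared more than 4 identical values. The number of arrays limits the precision (median SE 0.063 for averaged contrasts).

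Of the probe sets, 23521 had 1 gene symbol in the platform annotation, 1814 several and 16010 none; 23328 gene numbers were matched to the reference. The probe set with the highest mean stood for a gene (22180 genes, 1082 with several probe sets). Differences were fitted with limma 3.58.1 in R 4.3.3, with 1 mean per group, all 24 arrays (16 residual degrees of freedom, 14 with the block) and Benjamini-Hochberg adjustment over all genes, at a threshold of 0.05. The script was checked on simulated data. Figures used matplotlib 3.10.9.

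Experiment numbers paired the arrays, because hepatocytes of an experiment came from 1 pool: deviations from group means correlated in all 84 same-experiment pairs (r = 0.374 to 0.698). Without the block, arrays sharing a pool of cells count as independent. The listed genes and gene lists were chosen with earlier results of these data known. Named were the 4 genes, Foxa2, from each list up to 4 genes that passed, by size (or, with fewer than 2, the 2 largest), the nearest measured genes and the 3 most similar genes. Ugp2, Csnk1a1, Ncl, Poglut1 and the markers named singly were chosen after their values were seen. The split of the GW4064 difference by hormone was added after the data were seen.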

Additional observations from a re-analysis of the deposited data

How the results depend on the processing

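The averaged differences of Csnk2a1, Csnk2a2 and Uxs1 were recomputed under 9 alternatives: the experiment as a replicate block, centring or quantile scaling of arrays, a filter on genes with a mean level under 4, the mean of all probe sets, an intensity trend and each experiment left out. The fall of Csnk2a2 under glucagon passed in 9 of 9 (-0.56 to -0.49) and that of Csnk2a1 in 9 of 9 (-0.22 to -0.16, adjusted p up to 0.0498, without experiment 2). The hairpin differences stayed at -0.33 to -0.28 for Csnk2a1 and -0.43 to -0.36 for Uxs1, whereas that of Csnk2a2 was 0.03 without experiment 3. The block, the filter, the mean of all probe sets and the trend cannot alter the differences of the 3 genes, only their errors and adjusted p. The interactions of these genes passed in 0 of 9.

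The number of genes called moved more. With the hairpin it was 17 with the block, 4 with median centring, 4 with quantile scaling, 1 with the trend, and 0 to 1 without single experiments, against 2. With the hormone it was 5454 with the block and 2018 to 3610 without single experiments, against 3600. With GW4064 it was 1 with quantile scaling, 1 with the filter and 0 to 3 without single experiments, against 2. The block left every averaged difference as it was, as it must in this balanced design, and changed no call of the 3 genes. The number of arrays limits what single conditions can show, where the median SE was 0.13.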
